A study of Callithrix jacchus with 54 samples.

Results

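The effect of BMS493 during the first day of induction of common marmoset primordial germ cell-like cells (cjPGCLCs) was measured in 8 of the 54 RNA-seq libraries of the series. They were the libraries labelled as cultured in BLSE + IWR1 and in BLSE + IWR1 + BMS at 12 h and at 24 h, with 2 libraries for each condition and time. All 8 came from embryonic stem cells (cjESCs) of the line CMES40 that carry the germ cell reporters BLIMP1-tdTomato and NANOS3-eGFP, with the genotype given as wild type, that is without the inducible transgenes of the other line in the series. The cjESCs had been kept on mouse embryonic fibroblasts in PESFA medium and pre-induced for 24 h with IM12, an agonist of WNT signaling, and activin A. They were then aggregated in medium with BMP4, LIF, SCF, EGF and a ROCK inhibitor (BLSE) plus IWR1, an inhibitor of WNT signaling, so that WNT inhibition was common to both conditions. The BLSE + IWR1 + BMS condition differed by the addition of BMS493. The sorting label of these libraries is "all", so that no reporter or surface marker selected the cells, and 1 parental line was used. The comparison asks what the early response of the aggregates to a block of retinoic acid signaling was, within each time and over both times.

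Retinoic acid is made from retinol by dehydrogenases, is bound in the cytoplasm by CRABP proteins and is degraded by CYP26 enzymes. In the nucleus it binds the retinoic acid receptors RARA, RARB and RARG, which sit on DNA together with RXR partners, and ligand binding exchanges corepressors for coactivators. BMS493 is an inverse agonist of all retinoic acid receptors: it holds corepressors on the receptor and lowers transcription of target genes below the level without ligand. In the vertebrate embryo retinoic acid patterns the body axis through HOX genes and promotes neural differentiation, and it opposes WNT and FGF activity in the posterior epiblast.

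Expression is given as TPM, the number of a gene's transcripts scaled to a fixed library total, the unit in which the authors deposited their estimates. Differences are log2 fold changes of TPM + 1, BLSE + IWR1 + BMS over BLSE + IWR1, from a limma fit of all 54 libraries, and a gene was called when its p, adjusted by the Benjamini-Hochberg method over 11197 genes, was under 0.05. This scale understates the change of genes with low TPM. Sequencing depth is unknown, since TPM keep no read totals. In the 8 libraries, 12361 to 12688 of the 14812 genes were above 0. The number was 12361 to 12581 in the 4 BLSE + IWR1 libraries and 12604 to 12688 in the 4 BLSE + IWR1 + BMS libraries, so it moved with the condition, and its part in the results was not tested. The 14812 genes are limited to those shared with human, and their summed TPM is not fixed. It was 829026 to 832457 without and 834123 to 835199 with BMS493, so it moved with the condition too. The part of this sum in the results was not tested either. The log2 values of the 2 libraries of a condition correlated across genes with r of 0.988 to 0.994, lowest in BLSE + IWR1 at 12 h. Per the methods the duplicates were biological. The p-values measure the spread between duplicates as pooled over all 54 libraries, most of them of other conditions, and not that of these 8 alone.

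The pluripotency genes that define the labelled cells were present at both times. POU5F1, the central factor of the pluripotent state, stood at 5275 and 5224 TPM without and 4447 and 4725 TPM with BMS493 at 12 h, and 5439.6 and 5481 against 4599.9 and 4985 TPM at 24 h. NANOG was at 595 and 694 TPM without and 697 and 571 TPM with BMS493 at 12 h, and 522 and 646 against 438 and 376 TPM at 24 h. The markers of BLSE + IWR1 + BMS cells given with the comparison were CCDC80, SP5 and VIM. They were chosen with earlier results of these data known.

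VIM, the intermediate filament protein of mesenchymal cells, was the most highly expressed of the 3. It was measured at 262 and 239 TPM without and 375 and 482 TPM with BMS493 at 12 h, and 145 and 171 against 394 and 399 TPM at 24 h. All 4 BMS493 libraries lay above all 4 libraries without it. The log2 fold change was 0.76 ± 0.19 (SE) at 12 h and 1.32 ± 0.19 at 24 h (adjusted p = 1.75e-04). Over both times it was 1.04 ± 0.13 (adjusted p = 1.62e-05). In a bulk library a larger share of VIM-expressing cells and more VIM RNA per cell cannot be told apart, and this holds for every gene below.

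CCDC80, a secreted protein of the extracellular matrix, was at 11.2 and 10.2 TPM without and 17.1 and 25.1 TPM with BMS493 at 12 h, and 4.21 and 6.70 against 28.9 and 28.3 TPM at 24 h. The groups did not overlap at either time, and the level without BMS493 was lower at 24 h than at 12 h. Over both times the log2 fold change was 1.56 ± 0.24 (adjusted p = 2.79e-04), the largest increase among the genes called. At 24 h it was 2.22 ± 0.34 (adjusted p = 4.65e-04), and CCDC80 was then the 1 gene (0.00893% of those tested) that passed 4-fold at an adjusted p under 0.01. The 24 h call did not hold in the fit of only the 8 libraries (adjusted p = 0.0707).

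SP5, a transcription factor and direct target of WNT signaling, was called at 24 h and not at 12 h, and the difference between the times did not pass its test with all libraries. It was at 7.44 and 0.63 TPM in BLSE + IWR1 and 2.62 and 0.78 TPM in BLSE + IWR1 + BMS at 12 h, where the groups overlapped and replicate 1 was high in both. At 24 h it was at 2.54 and 3.23 against 19.01 and 13.7 TPM, without overlap. The log2 fold change was 2.15 ± 0.48 at 24 h (adjusted p = 0.0277) and -0.55 ± 0.48 at 12 h (adjusted p = 0.789). Over both times SP5 was not called (0.80 ± 0.34, adjusted p = 0.256), except when replicate 1 of BLSE + IWR1 at 12 h was left out (1.39, adjusted p = 0.00829). The 24 h call did not hold when only the 8 libraries were fitted (adjusted p = 0.393), nor when any library of 24 h was left out (0.15 to 0.462).

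In an exact permutation test of each marker over the 8 libraries, two-sided and with labels exchanged within each time, p was 0.0556 for CCDC80 and for VIM and 0.389 for SP5. The value 0.0556 is the smallest that the 36 arrangements can give, and within a single time the smallest is 0.33.

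**Figure D1:**
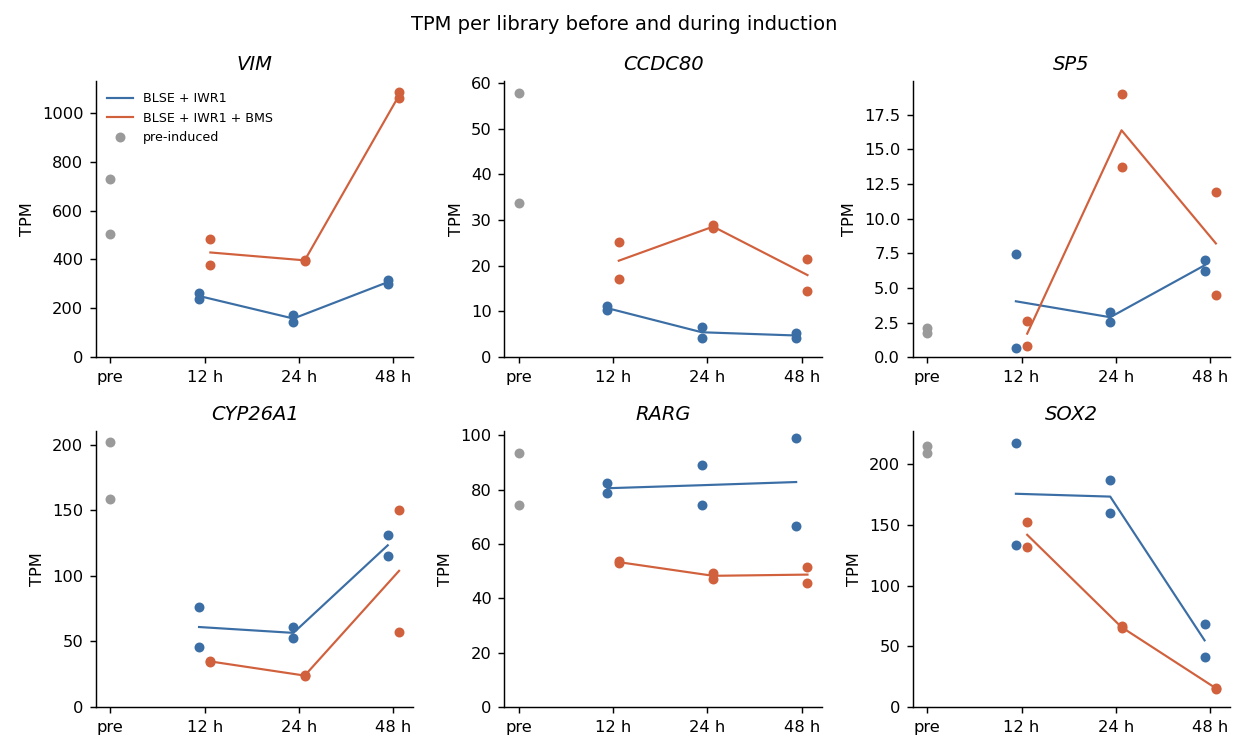
TPM (y axis, from 0) of VIM, CCDC80, SP5, CYP26A1, RARG and SOX2 in pre-induced cells and at 12, 24 and 48 h (x axis) in BLSE + IWR1 and BLSE + IWR1 + BMS, with 1 point per library and lines through the means of 2 libraries. At 12 and 24 h the points of VIM, CCDC80, CYP26A1 and RARG do not overlap between the conditions, and those of SP5 and SOX2 overlap at 12 h.

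Over both times 200 genes were called, 1.79% of those tested, of which 150 were higher (1.34%) and 50 lower (0.447%) with BMS493. No gene passed 4-fold at an adjusted p under 0.01. Across the 11197 genes the median effect was 0.057 on the log2 scale. At 12 h alone 14 genes were called (0.125%), 12 higher (0.107%) and 2 lower (0.0179%), and at 24 h alone 49 genes (0.438%), 34 higher (0.304%) and 15 lower (0.134%). Of the 200 genes, 144 were called at neither single time, and 191 had groups that did not overlap within either time, which held for 13% of all genes tested in the higher and 5.49% in the lower direction. Where groups of a called gene are described as separated, this therefore adds little to its call. The log2 fold changes exceeded 1 in size for 23 of the 200.

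The excess of increases depended on the scaling between libraries. With median-ratio scaling 188 genes were called, 104 higher and 84 lower, and with quantile normalization 225, 128 higher and 97 lower. The counts also rested on single libraries: over both times they ranged from 35 without replicate 2 to 365 without replicate 1 of BLSE + IWR1 at 12 h. They were 77 and 127 without replicate 1 or 2 of BLSE + IWR1 at 24 h, 116 and 62 without those of BLSE + IWR1 + BMS at 12 h, and 86 and 92 without those at 24 h. When only the 8 libraries were fitted, 47 genes were called, 25 higher and 22 lower, of which 36 were among the 200. Among the 54 genes named here that were called over both times, 12 were called under every alternative in which they were tested: VIM, CCDC80, TGFBI, HOXA10, HOXA11, HOXC11, ACVRL1, UNC5B and NRP2, which were higher, and DHDH, YWHAH and SIGIRR, which were lower. HOXC11 was not tested under 1 of them, the filter over the 8 libraries, which it did not pass.

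**Figure D2:**
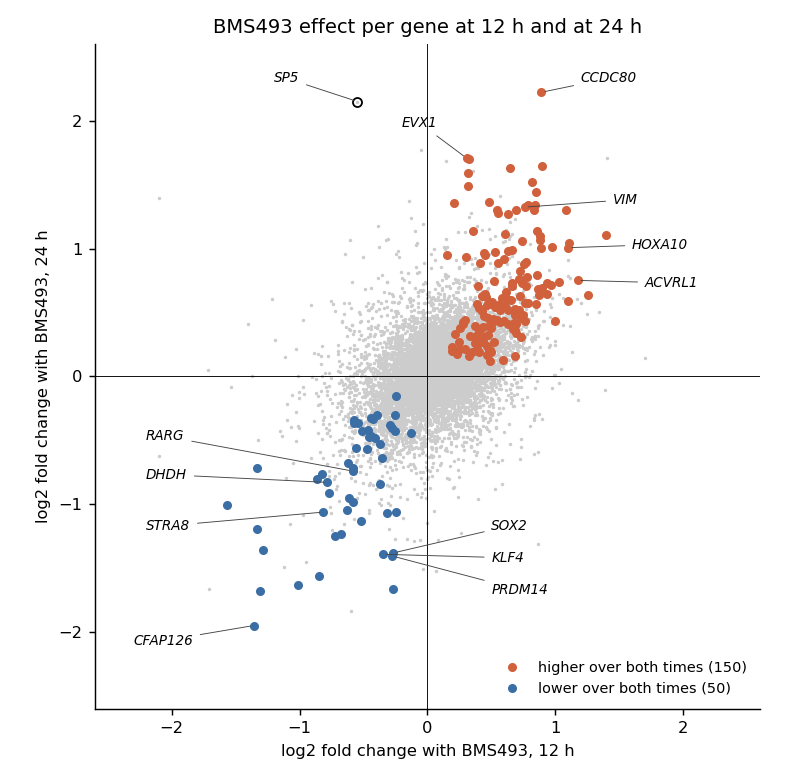
Log2 fold change with BMS493 at 12 h (x axis) and at 24 h (y axis) for the 11197 genes tested, with the 150 genes called higher and the 50 called lower over both times in colour and SP5 as an open circle. The coloured genes lie in the 2 quadrants where both times have the same sign, while SP5 lies at -0.55 at 12 h and 2.15 at 24 h.

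The genes of the retinoic acid pathway were followed from synthesis to response. Of 9 tested genes of retinoid transport and synthesis, 0 were called over both times in the limma fit, with a median log2 fold change of 0.09. The cellular retinoic acid binding protein CRABP2, the most abundant of them, was at 172 and 156 TPM without and 198 and 234 TPM with BMS493 at 12 h, and 199.9 and 190.0 against 228 and 259.9 TPM at 24 h. Its groups did not overlap, and its log2 fold change was 0.36 ± 0.25 (adjusted p = 0.567). RDH10, which oxidises retinol to retinaldehyde, had a log2 fold change of 0.52 ± 0.17 (adjusted p = 0.111), and ALDH1A2 and ALDH1A3, which oxidise retinaldehyde to retinoic acid, had -0.06 ± 0.30 and 0.46 ± 0.22. RDH10 and ALDH1A3, neither called, were higher in each BMS493 library than in each library without it at the same time. This held for 13% of all genes tested. ALDH1A2 was low, at 2.90 to 5.39 TPM in the 8 libraries. ALDH1A1 was listed at 0 in all 54 libraries. FN1, a fibronectin gene that most adherent cells use, was also listed at 0 in all 54, so a 0 can be a failed estimate.

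2 genes that remove retinoic acid or its precursor were lower in every BMS493 library. DHRS3, which reduces retinaldehyde back to retinol and is induced by retinoic acid in many cells, was at 68.8 and 67.9 TPM without and 51.7 and 45.1 TPM with BMS493 at 12 h, and 59.96 and 55.1 against 40.2 and 36.4 TPM at 24 h. CYP26A1, the enzyme that degrades retinoic acid and a direct receptor target, was at 76.3 and 45.6 TPM without and 34.5 and 34.9 TPM with BMS493 at 12 h, and 60.6 and 52.3 against 23.4 and 24.4 TPM at 24 h. Neither gene overlapped between the conditions at either time, but neither passed the test. Of all genes tested, 5.49% were lower without overlap within either time. The log2 fold change over both times was -0.98 ± 0.28 for CYP26A1 (adjusted p = 0.0543) and -0.53 ± 0.16 for DHRS3 (adjusted p = 0.0793). In pre-induced cells CYP26A1 had been at 202 and 159 TPM. Of the other CYP26 genes, CYP26C1 did not pass the filter on low values.

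Among the receptors, RARG fell. It was the most highly expressed of the RAR genes in these cells, at 78.8 and 82.3 TPM without and 53.7 and 52.97 TPM with BMS493 at 12 h, and 74.2 and 89.1 against 47.2 and 49.3 TPM at 24 h. The 4 BMS493 libraries lay between 47.2 and 53.7 TPM and the 4 others between 74.2 and 89.1 TPM. The log2 fold change was -0.66 ± 0.14 (adjusted p = 0.00731). The adjusted p was 0.0664 without replicate 2 of BLSE + IWR1 at 12 h and 0.0518 without replicate 2 at 24 h. RARA and RARB were at 0.49 to 2.74 TPM in the 8 libraries, with log2 fold changes of -0.38 ± 0.19 and -0.37 ± 0.22 that were not called. RARG was 1 of the 4 members of the receptor and corepressor list that passed the filter, all 4 with a negative value (median -0.38). RXRA, the widely expressed partner of the RARs, and the corepressor genes NCOR1 and NRIP1 were under the filter on low values in all 54 libraries and were not tested.

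The list of retinoic acid response genes held 14 tested members, of which 0 were called higher and 1 lower over both times, beside 0.447% of all genes called lower. The median was 0.25, with 8 members above 0 and 6 below. The member called was STRA8, the meiotic gatekeeper named for its stimulation by retinoic acid. It was at 7.35 and 6.63 TPM without and 3.06 and 4.07 TPM with BMS493 at 12 h, and 7.97 and 8.16 against 3.20 and 3.49 TPM at 24 h. The groups did not overlap, with a log2 fold change of -0.94 ± 0.17 (adjusted p = 0.00246) and an adjusted p of 0.0371 at 24 h alone. The HOX gene HOXA5 had a log2 fold change of 0.67 ± 0.21, the transglutaminase TGM2 0.45 ± 0.17 and the mesoderm factor FOXC1 0.93 ± 0.27, none of them called. FABP5, which can carry retinoic acid and was chosen after its values were seen, fell from 176 and 210.1 to 127 and 152 TPM at 12 h and from 169 and 182 to 118 and 118 TPM at 24 h (log2 fold change -0.52 ± 0.14, SE, adjusted p = 0.0437). The FABP5 call was lost in the fit of only the 8 libraries (adjusted p = 0.067).

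**Figure D3:**
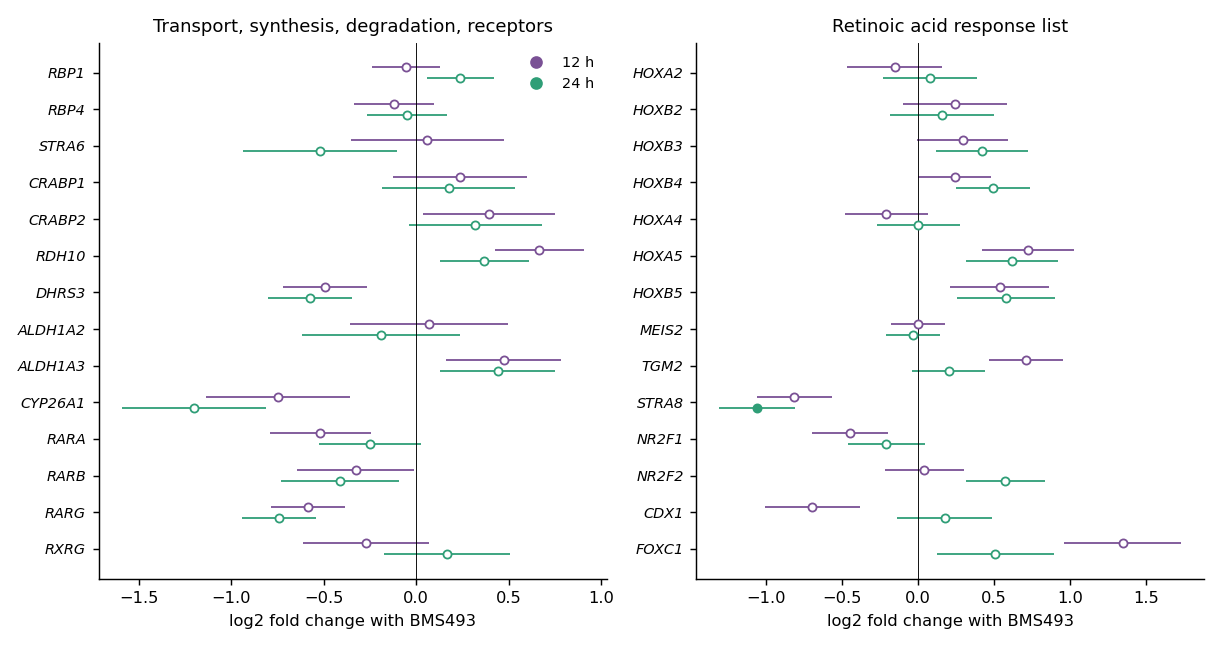
Log2 fold change with BMS493 (x axis) at 12 h and at 24 h for the tested genes of retinoid transport, synthesis, degradation and reception (left) and of the retinoic acid response list (right). Bars are standard errors and filled points have an adjusted p under 0.05 at that time, which holds for STRA8 at 24 h. CYP26A1, DHRS3, RARG and STRA8 lie below 0 at both times.

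Genes of the epithelial-to-mesenchymal transition (EMT) and mesenchymal list came out higher more often than lower. Of 11 tested members 6 were called higher and 0 lower over both times, with a median log2 fold change of 0.56, beside 1.34% called higher among all genes. The list holds VIM, a marker of this comparison, so its count is not independent of the choice of genes. Leaving out 1 library at a time gave 2 members called without replicate 2 and 7 without replicate 1 of BLSE + IWR1 at 12 h, and 3 or 4 without any of the others.

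TGFBI, a matrix protein induced by TGF-beta, was at 72.02 and 66.8 TPM without and 123 and 128 TPM with BMS493 at 12 h, and 55.6 and 76.9 against 181 and 178 TPM at 24 h. Its groups were far apart at both times (log2 fold change 1.14 ± 0.19, SE, adjusted p = 7.92e-04). The fibronectin receptor subunit ITGA5 was at 164 and 119 TPM without and 219.6 and 243 TPM with BMS493 at 12 h, and 159.5 and 181 against 264 and 263 TPM at 24 h (log2 fold change 0.68 ± 0.17, SE, adjusted p = 0.0285). MMP2, a gelatinase that degrades basement membrane collagen, was at 217 and 202 TPM without and 260.0 and 295 TPM with BMS493 at 12 h, and 234 and 238 against 348 and 337 TPM at 24 h (log2 fold change 0.47 ± 0.10, SE, adjusted p = 0.00737). All 3, described here because they were called, were higher in each BMS493 library than in each library without it at the same time. In the fit of only the 8 libraries TGFBI and MMP2 were called (adjusted p = 0.0353 for each) and ITGA5 was not (0.066).

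The transcription factor SNAI1, which represses E-cadherin in EMT, was at 22.4 and 19.1 TPM without and 27.2 and 24.3 TPM with BMS493 at 12 h, and 16.4 and 17.7 against 34.7 and 32.4 TPM at 24 h. The separation was small at 12 h and clear at 24 h, and over both times SNAI1 was called (log2 fold change 0.62 ± 0.14, SE, adjusted p = 0.0111). CDH2, the N-cadherin gene, was low and overlapped at 12 h with 4.05 and 2.29 against 2.43 and 4.98 TPM, while at 24 h it was at 1.62 and 1.84 against 4.06 and 4.47 TPM (log2 fold change 0.55 ± 0.14, SE, adjusted p = 0.0278 over both times). SNAI2, a paralogue of SNAI1, was at 7.19 and 7.92 TPM without and 12.7 and 10.96 TPM with BMS493 at 12 h, and 7.09 and 4.92 against 8.22 and 10.04 TPM at 24 h. Its groups did not overlap, but it was not called (log2 fold change 0.56 ± 0.22, adjusted p = 0.209). CDH11 was not called either (0.71 ± 0.25). In the fit of only the 8 libraries SNAI1 and CDH2 were not called over both times (adjusted p = 0.0537 and 0.24).

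The epithelial list did not move in the same way: 0 of 11 members were called in either direction over both times, with a median of 0.02. CDH1, the E-cadherin gene, was at 236 and 185 TPM without and 208 and 247 TPM with BMS493 at 12 h, and 254 and 272 against 280.0 and 275 TPM at 24 h (log2 fold change 0.10 ± 0.13). EPCAM was at 1427 and 1335 TPM without and 1177 and 1254 TPM with BMS493 at 12 h, and 1249.6 and 1256 against 1107 and 1122 TPM at 24 h, lower in each BMS493 library than in each library without it at the same time, but not called (-0.18 ± 0.08, adjusted p = 0.308). The difference between the 2 lists was not tested.

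Matrix genes that mark fibroblasts were followed because the cjESCs had been grown on mouse fibroblasts. Of 17 tested members of the fibroblast list 4 were called higher and 0 lower, with a median of 0.42, beside 1.34% of all genes called higher. They were CCDC80, the microfibril gene FBN1, the collagen gene COL5A1 and the proteoglycan gene LUM. CCDC80 is a marker of this comparison, so the count is not independent of the choice of genes. In the fit of only the 8 libraries FBN1, COL5A1 and LUM were not called over both times (adjusted p = 0.075, 0.0956 and 0.0537). FBN1 was at 10.6 and 6.11 TPM without and 16.6 and 20.02 TPM with BMS493 at 12 h, and 4.86 and 7.63 against 17.6 and 15.6 TPM at 24 h (log2 fold change 1.19 ± 0.19, SE, adjusted p = 3.07e-04). LUM was at 5.72 and 4.68 TPM without and 6.24 and 7.32 TPM with BMS493 at 12 h, and 1.35 and 2.11 against 7.99 and 7.58 TPM at 24 h, without overlap at either time (log2 fold change 1.01 ± 0.24, SE, adjusted p = 0.0149), and COL5A1 had a log2 fold change of 0.75 ± 0.20 (adjusted p = 0.04). The number called was 2 without replicate 2 of BLSE + IWR1 at 12 h, replicate 1 of it at 24 h, replicate 2 of BLSE + IWR1 + BMS at 12 h or either of its 24 h libraries.

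The most defining fibroblast collagens were not called. COL1A1 was at 119 and 73.6 TPM without and 165 and 119 TPM with BMS493 at 12 h, and 54.95 and 62.3 against 74.1 and 71.5 TPM at 24 h, and its log2 fold change was 0.44 ± 0.27 (adjusted p = 0.473). COL1A2 and COL3A1 had 0.54 ± 0.34 and 0.65 ± 0.36, and PDGFRB had -0.21 ± 0.18. The summed level of the 17 genes was 1478 and 1218 TPM in BLSE + IWR1 and 1655 and 1724 TPM in BLSE + IWR1 + BMS at 12 h, and 1056 and 1179.5 against 1396 and 1323 TPM at 24 h. The sums did not overlap within either time, and SPARC, a matrix glycoprotein that many cells make, gave 763 to 1209 TPM of them. Of the 17 genes 13 had a positive value over both times, beside 6838 of the 11197 genes tested. POSTN, the periostin gene, stood at 0.56 TPM or less in all 8 libraries. In pre-induced cells, which had been sorted for the cjESC surface marker TRA-1-60, the sum was higher still, 5479 and 9544 TPM. The part of carried-over fibroblasts in the matrix results was not tested.

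Several primitive streak and mesoderm genes were higher with BMS493 in both 24 h libraries, but few passed the test. Of 20 members 2 were called higher over both times, EVX1 and SNAI1, and 0 lower, with a median of 0.38, beside 1.34% of all genes called higher. SNAI1 was also counted in the EMT list above. Replicate 2 of BLSE + IWR1 at 12 h left out gave 0 calls, replicate 1 left out gave 5, and each of the others 1 or 2. At 24 h alone the same 2 were called (0.304% of all genes were called higher at 24 h), and the median was 0.53 against 0.26 at 12 h, where 0 were called in the limma fit.

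EVX1, a homeobox gene of the posterior streak, was at 37.9 and 11.6 TPM without and 26.5 and 26.3 TPM with BMS493 at 12 h. The 2 BLSE + IWR1 libraries lay on either side of the others. At 24 h it was at 19.5 and 18.2 against 60.8 and 67.01 TPM (log2 fold change 1.71 ± 0.32, SE, adjusted p = 0.00782). In the fit of only the 8 libraries EVX1 was called neither at 24 h (adjusted p = 0.272) nor over both times (0.17). Over both times the log2 fold change was 1.01 ± 0.23 (adjusted p = 0.0117, and 0.281 without replicate 2 of BLSE + IWR1 at 12 h).

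The same spread at 12 h was seen for other streak genes. TBXT, the Brachyury gene, was at 216 and 71.6 TPM without and 149.6 and 99.1 TPM with BMS493 at 12 h, and 152 and 123 against 391 and 251 TPM at 24 h. MIXL1, a homeobox gene of the mesendoderm, was at 48.4 and 20.7 TPM without and 33.96 and 27.4 TPM with BMS493 at 12 h, and 32.97 and 31.6 against 149 and 84.4 TPM at 24 h. EOMES, a T-box factor of the streak and of germ cell competence, was at 22.7 and 8.62 TPM without and 16.1 and 20.8 TPM with BMS493 at 12 h, and 14.6 and 14.4 against 48.99 and 43.4 TPM at 24 h. In each, replicate 1 of BLSE + IWR1 at 12 h was higher than both BMS493 libraries of that time, while at 24 h both BMS493 libraries exceeded both others. The log2 fold change at 24 h was 1.19 ± 0.36 for TBXT, 1.77 ± 0.67 for MIXL1 and 1.61 ± 0.54 for EOMES, none of them called (adjusted p = 0.197, 0.499 and 0.347).

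CDX2, a caudal homeobox gene, was at 0.86 and 2.23 against 8.11 and 5.84 TPM at 24 h and overlapped at 12 h (log2 fold change over both times 0.92 ± 0.29, adjusted p = 0.103). FOXF1, a factor of lateral and extraembryonic mesoderm, was higher in each BMS493 library, at 4.37 and 2.39 TPM without and 5.12 and 5.21 TPM with BMS493 at 12 h, and 2.22 and 3.08 against 7.30 and 6.29 TPM at 24 h, and lay at the threshold (0.82 ± 0.23, adjusted p = 0.0501). HAND1, the most abundant member at 24 h, had 0.38 ± 0.22 and was not called.

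WNT targets and WNT ligands were examined because IWR1 was in both media. Of 16 tested WNT target and feedback genes 0 were called over both times in the limma fit, and of 13 ligands and modulators 0, with medians of 0.19 and 0.13. Of the 16, 12 had a positive value over both times and 4, AXIN2 among them, a negative one. At 24 h alone 1 of the 16 was called higher, the marker SP5, beside 0.304% of all genes. At that time 13 of the 16 had a positive value (median 0.32), as did 6474 of the 11197 genes tested. AXIN2, a general readout of the pathway, was at 10.1 and 6.42 TPM without and 5.30 and 6.17 TPM with BMS493 at 12 h, and 5.33 and 6.13 against 5.45 and 5.04 TPM at 24 h. Both BMS493 libraries were lower at 12 h, and the groups overlapped at 24 h. Its log2 fold change was -0.27 ± 0.21 and was not called. LEF1, a nuclear partner of beta-catenin that is itself a target, was at 0.68 to 2.60 TPM, higher in each BMS493 library than in the others of its time, and was not called (0.54 ± 0.20). WNT8A, a ligand of the streak, was at 33.2 and 27.8 against 18.8 and 39.7 TPM at 12 h and 92.8 and 77.2 against 209 and 233 TPM at 24 h. It was higher in both BMS493 libraries at 24 h, without passing the test (log2 fold change 1.37 ± 0.41, adjusted p = 0.189).

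**Figure D4:**
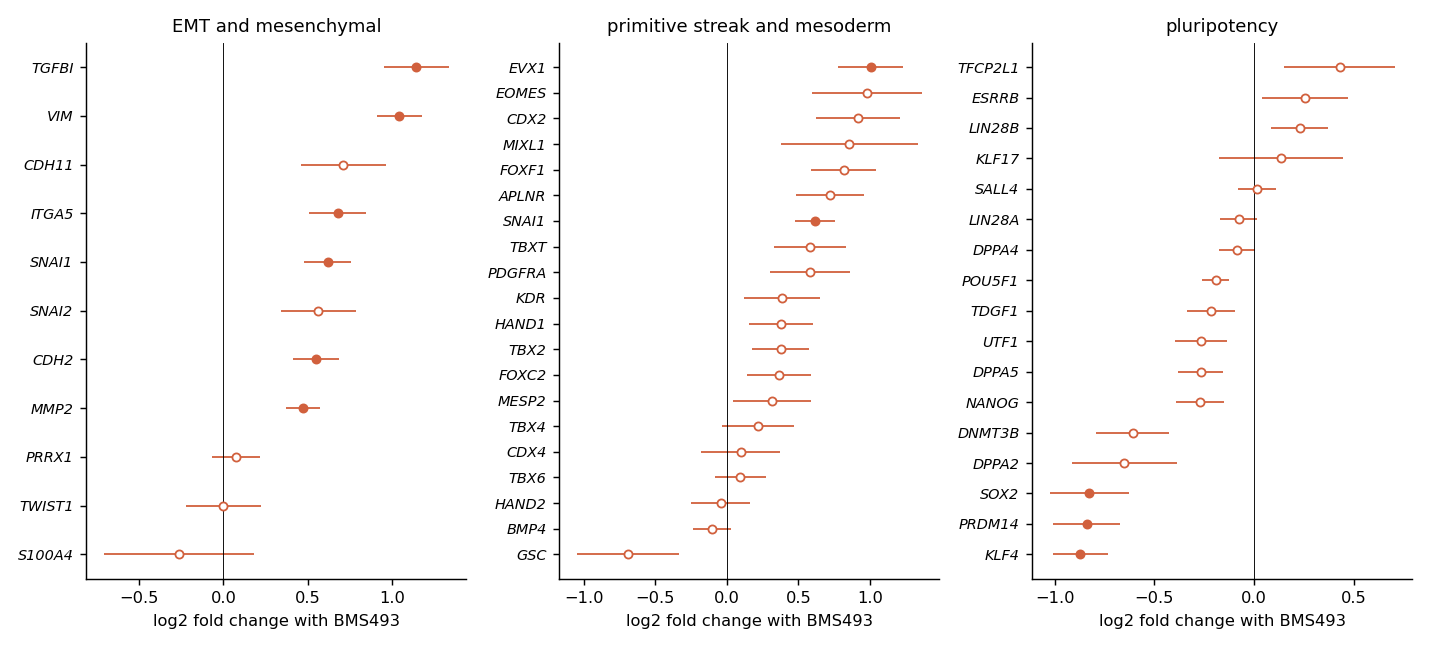
Log2 fold change with BMS493 over both times (x axis) of the tested members of the EMT and mesenchymal, primitive streak and mesoderm, and pluripotency lists, sorted by value, with standard errors. Filled points have an adjusted p under 0.05: 6 of 11 EMT genes and 2 of 20 streak genes above 0, and 3 of 17 pluripotency genes below 0.

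HOX genes, which give cells their position along the body axis, were low in these cells but 5 of the 25 tested were called higher over both times and 0 lower, with a median of 0.36, beside 1.34% of all genes called higher. Leaving out 1 library at a time gave 3 to 5 calls, and it gave 3 without replicate 2 of BLSE + IWR1 at 12 h or its replicate 1 at 24 h, or without replicate 2 of BLSE + IWR1 + BMS at either time. The 5 genes were HOXB6, HOXA10, HOXA11, HOXA13 and HOXC11. 4 of the 5 belong to the posterior paralogue groups 9 to 13, in which 10 genes were tested and 7 reached 1 TPM in any of the 8 libraries. The other, HOXB6, belongs to groups 1 to 8, in which 15 were tested and 7 reached 1 TPM. The median was 0.32 in the posterior and 0.36 in the other groups, and the difference between the groups was not tested.

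HOXA10 was at 1.35 and 1.33 TPM without and 4.10 and 3.95 TPM with BMS493 at 12 h, and 1.36 and 0.97 against 3.20 and 3.47 TPM at 24 h. The 4 BMS493 libraries lay between 3.20 and 4.10 TPM and the 4 others between 0.97 and 1.36 TPM (log2 fold change 1.05 ± 0.17, SE, adjusted p = 4.34e-04), and HOXA10 was called at 12 h and at 24 h separately. The 12 h call was lost in all 8 fits that left out 1 library (adjusted p = 0.0533 to 0.466) and was kept in 2 of the 8 other alternatives. HOXA11 was at 2.67 and 2.14 TPM without and 4.82 and 4.92 TPM with BMS493 at 12 h, and 1.17 and 1.51 against 5.18 and 4.68 TPM at 24 h (log2 fold change 1.07 ± 0.19, SE, adjusted p = 0.0017). HOXA13, the most posterior gene of the cluster, was at 2.97 and 2.04 TPM without and 3.59 and 5.31 TPM with BMS493 at 12 h, and 2.98 and 3.89 against 8.91 and 10.5 TPM at 24 h (log2 fold change 0.95 ± 0.21, SE, adjusted p = 0.00755).

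HOXC11 stood near 0 without BMS493, at 0.13 and 0.09 TPM at 12 h and 0.10 and 0.08 TPM at 24 h, and at 1.02 and 1.06 and 0.96 and 1.65 TPM with it (log2 fold change 0.97 ± 0.18, SE, adjusted p = 0.00177). It belongs to the HOXC cluster, apart from the HOXA genes above. HOXB6 had a log2 fold change of 0.77 ± 0.21 (adjusted p = 0.04). In the fit of only the 8 libraries HOXB6 and HOXA13 were not called over both times (adjusted p = 0.0893 and 0.0768). Under the filter over the 8 libraries 7 HOX genes were tested and 4 were called higher. HOXA9, the neighbour of HOXA10 in its cluster, had 0.62 ± 0.22 and was not called.

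**Figure D5:**
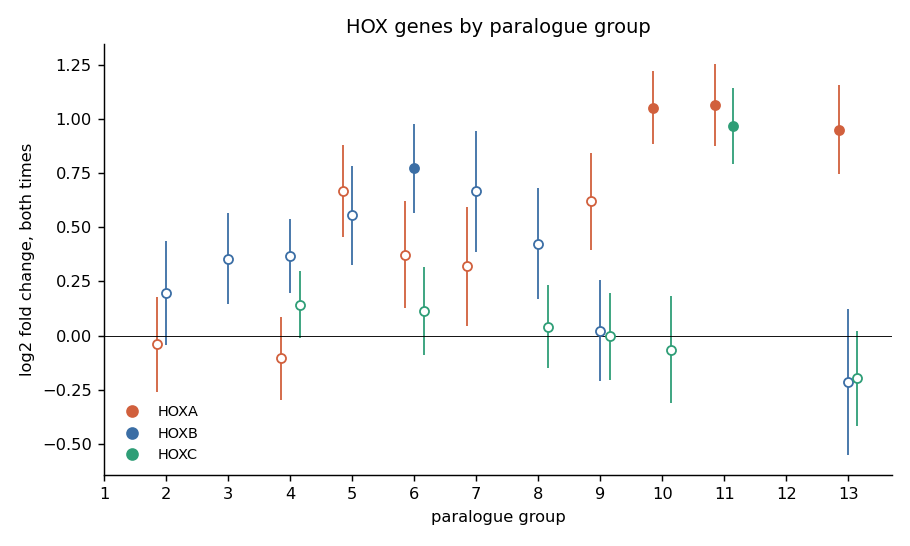
Log2 fold change with BMS493 over both times (y axis) of the 25 tested HOX genes by paralogue group (x axis, low numbers anterior) and cluster, with standard errors. Filled points have an adjusted p under 0.05: HOXB6, HOXA10, HOXA11, HOXC11 and HOXA13, all above 0.

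Of 17 pluripotency genes 3 were called lower over both times, SOX2, PRDM14 and KLF4, and 0 higher, with a median of -0.22, beside 0.447% of all genes called lower. With 1 library left out at a time 1 to 3 were called, 1 without replicate 2 of BLSE + IWR1 at 24 h or of BLSE + IWR1 + BMS at 12 h. SOX2, which maintains pluripotency and the neural fate, was at 134 and 218 TPM without and 152 and 132 TPM with BMS493 at 12 h, and 159.8 and 187 against 64.96 and 66.6 TPM at 24 h. It overlapped at 12 h and was lower by more than the spread at 24 h, with a log2 fold change of -1.38 ± 0.28 (adjusted p = 0.0142) and of -0.83 ± 0.20 over both times (adjusted p = 0.0219). The call over both times was lost in 6 of the 8 fits that left out 1 library, with an adjusted p of 0.0566 to 0.258.

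PRDM14, a transcriptional regulator of naive pluripotency and of germ cells, was at 93.8 and 97.7 TPM without and 93.8 and 66.6 TPM with BMS493 at 12 h, and 63.7 and 99.7 against 33.1 and 26.3 TPM at 24 h. KLF4 was at 59.7 and 69.9 TPM without and 58.2 and 43.8 TPM with BMS493 at 12 h, and 41.9 and 56.7 against 16.3 and 19.8 TPM at 24 h. In both, the 24 h groups were well separated and replicate 1 of BLSE + IWR1 + BMS at 12 h lay close to the libraries without BMS493. The log2 fold change at 24 h was -1.41 ± 0.24 for PRDM14 (adjusted p = 0.00184) and -1.39 ± 0.20 for KLF4 (adjusted p = 1.75e-04). In the fit of only the 8 libraries PRDM14 was not called at 24 h (adjusted p = 0.136). Over both times that fit called neither PRDM14 nor KLF4 (adjusted p = 0.0911 and 0.071).

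The core factors themselves were not called: POU5F1 had a log2 fold change of -0.19 ± 0.07 over both times and NANOG -0.27 ± 0.12 (adjusted p = 0.15 and 0.288). POU5F1 was nonetheless lower in each BMS493 library than in each library without it at the same time. The de novo methyltransferase DNMT3B and the pluripotency gene DPPA2 were at 69.2 and 83.97 against 38.97 and 39.9 TPM and 24.8 and 20.2 against 9.21 and 12.3 TPM at 24 h, and over both times they had -0.61 ± 0.18 and -0.65 ± 0.26, not called.

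Among 12 genes of germ cell specification 0 were called higher and 1 lower over both times, beside 0.447% of all genes called lower. The gene called was PIM2, a survival kinase, at 59.8 and 97.04 TPM without and 68.5 and 54.3 TPM with BMS493 at 12 h, and 74.3 and 92.7 against 40.3 and 37.8 TPM at 24 h (log2 fold change -0.69 ± 0.15, SE, adjusted p = 0.00721). SOX17, the key specifier of primate germ cells and also an endoderm factor, was at 4.97 and 5.08 TPM without and 5.93 and 8.12 TPM with BMS493 at 12 h, and 9.14 and 6.06 against 14.01 and 15 TPM at 24 h. It was higher in each BMS493 library than in each other library of its time, but it did not pass the test (0.64 ± 0.20, adjusted p = 0.1).

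PRDM1, which encodes BLIMP1, had a log2 fold change of 0.21 ± 0.15 and TFAP2C 0.09 ± 0.13, neither called. NANOS3, an RNA-binding protein of germ cells, was at 6.11 and 5.18 TPM without and 8.24 and 5.34 TPM with BMS493 at 12 h, and 9.10 and 7.85 against 13.9 and 13.1 TPM at 24 h. Its level was higher at 24 h with BMS493, with a log2 fold change over both times of 0.41 ± 0.21 (adjusted p = 0.366).

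Neural genes were examined because retinoic acid promotes neural differentiation. Of 13 tested neural genes 0 were called over both times in either direction, with a median of -0.15. SOX3, a neural progenitor factor, was at 60.1 and 37.3 TPM without and 33.8 and 39.5 TPM with BMS493 at 12 h, and 80.5 and 62.2 against 68.02 and 63.2 TPM at 24 h. The groups overlapped at both times (-0.24 ± 0.25). NES, the nestin gene, had 0.13 ± 0.09. The defining factor SOX1 was under the filter in all 54 libraries.

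The other lists held few calls over both times. Among 13 genes of the NODAL axis and endoderm 0 were called: the NODAL antagonist CER1 was at 5.23 and 18.97 TPM without and 31.8 and 25.6 TPM with BMS493 at 12 h, and 8.64 and 9.43 against 41.1 and 24.4 TPM at 24 h (1.56 ± 0.66, adjusted p = 0.259), and GATA6 and FOXA2, factors of the endoderm, had 0.78 ± 0.23 and 0.96 ± 0.30. Of 12 BMP targets 0 were called. NOG, a secreted BMP antagonist, was at 27.4 and 20.5 TPM without and 36.7 and 35.9 TPM with BMS493 at 12 h, and 25.2 and 22.04 against 40.3 and 37.4 TPM at 24 h, without overlap at either time but with a log2 fold change of 0.65 ± 0.26 that was not called (adjusted p = 0.213). The amnion-associated (11 tested), FGF and ERK feedback (12), proliferation (14) and glycolysis (13) lists had 0 members called. Of 11 genes of dissociation and immediate early response 1 was called higher, beside 1.34% of all genes. It was DDIT4, a stress-induced inhibitor of mTOR signaling (log2 fold change 0.64 ± 0.16, SE, adjusted p = 0.0316). The DDIT4 call was kept in 4 of the 8 alternatives that left out no library. It was lost in the fit of only the 8 libraries (adjusted p = 0.0816).

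Several of the 10 genes with the largest increases over both times lay outside these lists. They included RGCC, a regulator of the cell cycle, at 6.98 and 5.25 TPM without and 10.96 and 13.5 TPM with BMS493 at 12 h, and 3.83 and 3.19 against 13.9 and 12.4 TPM at 24 h (log2 fold change 1.27 ± 0.27, SE, adjusted p = 0.00737). ANGPT2, a ligand of the endothelial receptor TIE2, had 1.17 ± 0.24 (adjusted p = 0.00445). CD226, an adhesion receptor best known from lymphocytes, was at 3.07 and 2.30 TPM without and 8.58 and 8.70 TPM with BMS493 at 12 h, and 2.18 and 3.42 against 10.5 and 4.68 TPM at 24 h (log2 fold change 1.25 ± 0.25, SE, adjusted p = 0.00465).

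2 of the 10 are receptors of guidance cues. The semaphorin and VEGF receptor NRP2 was at 10.3 and 9.08 TPM without and 21.4 and 22.8 TPM with BMS493 at 12 h, and 10.96 and 14.4 against 30.9 and 23.5 TPM at 24 h. PLXNA2, a semaphorin receptor of the plexin family, was at 3.94 and 3.01 TPM without and 6.75 and 7.09 TPM with BMS493 at 12 h, and 5.25 and 5.80 against 16.2 and 14.1 TPM at 24 h. Each was higher in both BMS493 libraries of both times (NRP2 1.08 ± 0.21, adjusted p = 0.00445, and PLXNA2 1.07 ± 0.25, adjusted p = 0.0137). HAS2, which makes the matrix polysaccharide hyaluronan, and the secreted olfactomedin protein OLFML2B had 1.09 ± 0.26 and 1.14 ± 0.25 (adjusted p = 0.0216 and 0.00902). With FBN1, TGFBI and CCDC80 above, they complete the 10.

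The 10 largest decreases included 3 genes of the cilium. CFAP126, a protein of the cilium and flagellum, was at 19.03 and 25.97 TPM without and 10.2 and 6.34 TPM with BMS493 at 12 h, and 17.9 and 14.5 against 7.51 and 1.31 TPM at 24 h. CFAP73, of the same kind, was at 4.20 and 4.27 TPM without and 1.44 and 0.89 TPM with BMS493 at 12 h, and 2.66 and 3.55 against 1.05 and 0.24 TPM at 24 h. TPPP3, a tubulin-binding protein of ciliated cells, was at 33.8 and 40.4 TPM without and 17.6 and 17.95 TPM with BMS493 at 12 h, and 19.98 and 24.8 against 8.34 and 5.02 TPM at 24 h. The BMS493 libraries were lower at both times in all 3 genes. The log2 fold changes were -1.65 ± 0.39, -1.32 ± 0.22 and -1.32 ± 0.28, in this order (adjusted p = 0.0177, 4.50e-04 and 0.00659).

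PGM5, a relative of phosphoglucomutase found at adherens junctions, was at 8.95 and 11.3 TPM without and 2.45 and 4.81 TPM with BMS493 at 12 h, and 7.87 and 10.3 against 1.91 and 2.35 TPM at 24 h (log2 fold change -1.49 ± 0.22, SE, adjusted p = 2.25e-04). SIGIRR, a brake on interleukin-1 receptor signaling, was at 10.4 and 10.01 TPM without and 3 and 3.94 TPM with BMS493 at 12 h, and 11.02 and 9.76 against 4.67 and 3.37 TPM at 24 h (log2 fold change -1.26 ± 0.23, SE, adjusted p = 0.002). Both were separated by condition at each time. NAGS, which makes the cofactor of the urea cycle, had -1.21 ± 0.24 (adjusted p = 0.00445), and the channel TRPC4, which overlapped at 12 h, had -0.97 ± 0.20 (adjusted p = 0.00445).

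The remaining 3 stood at 12.3 TPM or less in all 8 libraries. NPPB, the B-type natriuretic peptide, was at 12.3 and 4.33 against 1.19 and 2.70 TPM at 12 h (log2 fold change -1.29 ± 0.34, SE, adjusted p = 0.0368). The nicotinic receptor subunit CHRNB4 had -1.03 ± 0.27 (adjusted p = 0.0362), and LTC4S, the leukotriene C4 synthase, which lay between 0 and 2.30 TPM, had -0.99 ± 0.25 (adjusted p = 0.028).

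At 12 h the 14 calls were led by ACVRL1, a type I receptor of the TGF-beta family, at 3.64 and 2.64 against 8.68 and 7.89 TPM (log2 fold change 1.17 ± 0.20, SE, adjusted p = 0.0171). HOXA10 came next (1.10 ± 0.24, adjusted p = 0.0461). The arrestin-domain gene ARRDC4 was at 13.3 and 9.03 against 25.6 and 22.1 TPM at 12 h (log2 fold change 1.05 ± 0.22, SE, adjusted p = 0.0323) and at 10.8 and 9.81 against 10.8 and 10.8 TPM at 24 h, where the groups overlapped. The netrin receptor UNC5B and the actin-binding scaffold PPP1R9B had log2 fold changes of 0.93 ± 0.20 and 0.87 ± 0.17 (adjusted p = 0.0386 and 0.0233).

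The 2 genes called lower at 12 h were also called lower at 24 h. DHDH, a dihydrodiol dehydrogenase, was at 215 and 234 TPM without and 119 and 142 TPM with BMS493 at 12 h, and 228 and 235 against 123 and 138 TPM at 24 h. The conditions were separated at both times, and the log2 fold change over both times was -0.81 ± 0.10 (adjusted p = 1.62e-05), and only VIM had an adjusted p as small. YWHAH, a 14-3-3 adaptor protein, was at 814 and 806 TPM without and 634 and 543 TPM with BMS493 at 12 h, and 705 and 728 against 541 and 531 TPM at 24 h (log2 fold change -0.44 ± 0.07, SE, adjusted p = 3.07e-04). DHDH, YWHAH and HOXA10 were the 3 genes called at both single times. In the fit of only the 8 libraries none of the 3 was called at 12 h (adjusted p = 0.226 for each), and with 1 library left out the 12 h call was kept in 5, 4 and 0 of 8 fits, in this order.

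The 12 h count rested on single libraries. Without replicate 1 of BLSE + IWR1, 73 genes were called and without replicate 2 of it 4, while without either BLSE + IWR1 + BMS library 0 were called in the limma fit. With median-ratio scaling 3 genes were called at 12 h, 2 higher and 1 lower, and with quantile normalization 0.

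At 24 h the 5 largest increases were those of CCDC80, SP5, EVX1, LUM (1.70 ± 0.33, adjusted p = 0.0109) and RGCC (1.65 ± 0.39, adjusted p = 0.0382). The 5 largest decreases were those of PGM5 (-1.68 ± 0.32, adjusted p = 0.00782), TRPC4 (-1.67 ± 0.28, adjusted p = 0.00152), TPPP3 (-1.63 ± 0.39, adjusted p = 0.046), NAGS (-1.56 ± 0.34, adjusted p = 0.0211) and PRDM14. TRPC4 was at 4.20 and 4.56 against 0.65 and 0.74 TPM at 24 h. Without replicate 1 or 2 of BLSE + IWR1, 9 and 7 genes were called at 24 h, and without either BLSE + IWR1 + BMS library 5. With quantile normalization 56 were called, 32 higher and 24 lower.

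Whether the effect changed between 12 and 24 h was tested as the difference of the 2 contrasts. In the limma fit 0 of 11197 genes were called, and 185 had an unadjusted p under 0.05. The 5 smallest p-values belonged to MGST1, SRARP, SP5, C2H5orf58 and KLF4, with adjusted p of 1 for each. The difference was 2.70 ± 0.68 for SP5 and -1.04 ± 0.28 for KLF4 on the log2 scale (unadjusted p = 3.30e-04 and 6.42e-04). The glutathione transferase MGST1 (1.47 ± 0.36), SRARP (1.39 ± 0.35) and C2H5orf58 (-2.18 ± 0.57) were at 1.74 TPM or less in all 8 libraries. Without replicate 2 of BLSE + IWR1 at 12 h, 4 genes were called, SP5 (3.88, adjusted p = 0.00246) and SRARP (1.83, adjusted p = 0.0289) among them. With all libraries the larger values of SP5, EVX1, SOX2, PRDM14 and KLF4 at 24 h were not shown to differ from those at 12 h. Across genes, which are not independent, the log2 fold changes at 12 h and 24 h, from different libraries, correlated with r = 0.43.

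The nearest comparison in the series is the same one at 48 h, in 4 other libraries with the same sorting label. There 1287 genes were called (11.5%), 769 higher (6.87%) and 518 lower (4.63%), and 27 (0.241%) passed 4-fold at an adjusted p under 0.01. Of the 200 genes called over 12 and 24 h, 194 had the same sign at 48 h. Of the 200, 120 were called in the same direction, which is 60% of the 200 and 9.32% of the 1287, and 0 in the opposite direction. VIM was at 299 and 315 against 1083 and 1059 TPM at 48 h (log2 fold change 1.80 ± 0.19), SOX2 at 41.4 and 68.4 against 14.99 and 15.8 TPM (-1.73 ± 0.28) and STRA8 at 8.25 and 12.2 against 2.79 and 2.51 TPM (-1.60 ± 0.25).

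The difference between the 48 h effect and the mean of the 12 and 24 h effects was called for 67 genes (0.598%), 33 higher (0.295%) and 34 lower (0.304%), of which 2 were among the 200. Among the 14 retinoic acid response genes 1 passed this test, HOXB2, a hindbrain HOX gene, which was at 3.27 and 1.51 against 6.84 and 24.9 TPM at 48 h and at 1 TPM or less at 12 and 24 h (1.92 ± 0.42, adjusted p = 0.0208). It was named after its values were seen. CYP26A1 was at 131 and 115 against 151 and 56.99 TPM at 48 h, where the groups overlapped, and the difference of its effects was 0.57 ± 0.48 (adjusted p = 0.741). For SP5 it was -0.65 ± 0.59, with 6.22 and 7.04 against 11.9 and 4.52 TPM at 48 h. KLF4, lower at 24 h, was at 9.41 and 14.5 against 9.40 and 12.9 TPM at 48 h (0.79 ± 0.24, adjusted p = 0.13).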

How the data were processed

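Per the labels, poly(A) RNA was made into directional libraries, and the authors aligned the reads with STAR to a marmoset genome and quantified genes with RSEM. They deposited TPM for 14812 genes in 54 libraries, limited to genes shared with human. The deposited TPM keep no counts, so depth is unknown and no count test was possible. From them log2(TPM + 1) was computed, and genes reaching 1.5 on this scale in at least 1 of the 54 libraries were kept (11197). With limma 3.58.1 in R 4.3.3, all 54 libraries were fitted together with a mean for each condition (27 residual degrees of freedom, intensity trend). The contrasts were BLSE + IWR1 + BMS minus BLSE + IWR1 at 12 h, at 24 h, their mean (both times) and their difference, at 48 h, and 48 h minus the 12 and 24 h mean. Benjamini-Hochberg adjustment ran over every gene kept. A stricter rule asked for more than a 4-fold change at an adjusted p under 0.01 in genes whose mean log2 value exceeded 1.5. The script was tested on simulated data. All columns were matched to a library, and the authors' pipeline was not rerun.

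The members and gene lists were chosen with earlier results of these data known. Named were the markers, the called members and up to 6 other members of each list described, the 10 largest called changes in each direction over both times, the 5 at each single time and the 5 smallest p of the difference, without symbols that are locus numbers. FABP5 and the motile cilia and basement membrane lists were added after values were seen. Some members of the lists are not reported here. The alternatives tried were a pseudocount of 0.1, no filter, a filter over the 8 libraries, median-ratio and quantile scaling, no intensity trend, a replicate block, a fit of only the libraries compared, and each library left out.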

Additional observations from a re-analysis of the deposited data

Results flagged for a closer look

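A test of the difference between the 48 h effect and the mean of the 12 and 24 h effects, from the same limma fit, passed an adjusted p of 0.05 for 4 of 106 named genes, and 0 of the 106 passed for the difference between 24 h and 12 h. The difference was -1.13 on the log2 scale for NANOG (adjusted p = 0.0043), which stood at 242 and 286 TPM without and 103 and 94.7 TPM with BMS493 at 48 h. It was -0.63 for POU5F1 (adjusted p = 0.00445), at 5033 and 5779 against 2899 and 3200.3 TPM at 48 h. Both core pluripotency factors were therefore lower with BMS493 at 48 h by more than at 12 and 24 h. The difference was 1.67 for SNAI2 (adjusted p = 0.0307), which was at 10.8 and 8.15 against 34.4 and 66.5 TPM at 48 h. For DHDH it was -0.82 (adjusted p = 0.0149), with 208 and 187 against 59.2 and 67.2 TPM at 48 h, so that the decrease seen at 12 and 24 h was larger there. The groups hold 2 libraries each, so that no single library could be tested for standing apart.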

How the results depend on the processing

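The counts of called genes depended on the processing. None of the 72 called results for named genes reversed in direction, but a reversal was unlikely in results picked for a small adjusted p. Of the 54 named genes called over both times, 15 kept the call in every alternative that left out no library. At 12 h the 14 calls became 23 with no filter, 3 with median-ratio scaling, 3 with no intensity trend, and 0 with quantile normalization and with a fit of only the 8 libraries. At 24 h the 49 calls became 17 with a pseudocount of 0.1 and 6 with the 8 libraries alone. Over both times the 200 calls became 47 with the 8 libraries alone. For the 24 h minus 12 h difference, 1 gene was called with no filter and 1 with the 8 libraries alone, in place of 0. The 67 calls of the 48 h difference became 34 with a pseudocount of 0.1, 16 with only the libraries compared and 104 with quantile normalization. Leaving out 1 library gave 0 to 73 calls at 12 h, 5 to 45 at 24 h, 35 to 365 over both times, 0 to 4 for the 24 h minus 12 h difference and 31 to 65 for the 48 h difference, where it was 31 without BLSE + IWR1 replicate 2 at 24 h, 39 and 42 without BLSE + IWR1 + BMS replicate 1 or 2 at 12 h, and 32 without its replicate 2 at 24 h. The remaining library of such a group was assumed to vary like the others. With the 8 libraries alone, 3 EMT genes, 3 HOX genes, 1 fibroblast gene and 0 streak genes were called higher over both times and 1 pluripotency gene lower. That gene was none of SOX2, PRDM14 and KLF4, which had adjusted p of 0.08, 0.0911 and 0.071 in this limma fit. The cause of these changes was not tested, beyond the fewer libraries in some fits.

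Of 128 gene results, 72 of them called, 74 kept their side of the threshold with the 8 libraries alone and 102 with a pseudocount of 0.1. SP5 over both times was called without BLSE + IWR1 replicate 1 at 12 h (log2 fold change 1.39), with a range of 0.21 to 1.39 over the libraries left out, and its 12 h value ranged from -1.73 to 0.64, positive only without that library. The uncalled value of ALDH1A2 ranged from -0.18 to 0.060 and turned positive (0.060 and 0.034) without BLSE + IWR1 + BMS replicate 1 at 12 h or at 24 h. That of TFAP2C ranged from -0.032, without BLSE + IWR1 replicate 2 at 12 h, to 0.22. Of the 200 calls over both times 75% were higher, against 55.3% of 188 with median-ratio scaling and 56.9% of 225 with quantile normalization. At 12 h the share was 85.7% against 66.7% with median-ratio scaling, and at 24 h 69.4% against 57.1% with quantile normalization and 55.8% with no filter. Same-numbered libraries did not deviate together (correlations of -0.004, -0.092 and -0.048 at 12, 24 and 48 h), so the numbers were not taken as pairs. A replicate block gave 17 calls at 12 h, 38 at 24 h, 202 over both times, 0 for the 24 h minus 12 h difference and 72 for the 48 h difference. With it CYP26A1 over both times had an adjusted p of 0.0496. Since TPM keep no depth, it is unknown which low genes, such as HOXC11, LTC4S or C2H5orf58, rest on few reads.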

Other observations

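2 groups of genes were assembled after their members' values had been seen, so their counts, and the summed level given for the first, are a description. The first holds genes of motile cilia. Of 37 tested members 31 had a negative log2 fold change with BMS493 over both times, 4 were called lower and 0 higher, with a median of -0.32, beside 0.447% of all genes called lower. The members called were CFAP126, CFAP73, TPPP3 and SPAG6, which codes for a protein of the central pair of the axoneme (log2 fold change -0.50 ± 0.13, SE, adjusted p = 0.0346). The summed level of the group was 434 and 488 TPM without and 334 and 329 TPM with BMS493 at 12 h, and 359.8 and 431 against 239 and 221 TPM at 24 h, without overlap at either time. FOXJ1, the master regulator of motile cilia, was at 145 and 151 TPM without and 122 and 94.5 TPM with BMS493 at 12 h, and 122 and 154 against 73.9 and 56.96 TPM at 24 h. It was not called over both times (-0.76 ± 0.32, adjusted p = 0.249), while at 48 h it was at 59.6 and 68.3 against 13.99 and 5.17 TPM (log2 fold change -2.75 ± 0.45, SE, adjusted p = 7.73e-05). At 48 h 12 of the 37 genes were called lower and 0 higher, beside 4.63% of all genes called lower at that time. The number of calls over both times fell to 1 without replicate 2 of BLSE + IWR1 at 12 h or of BLSE + IWR1 + BMS at 24 h, and to 1 in the fit of only the 8 libraries.

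The second holds basement membrane components and integrins, the receptors that bind them. Of 31 tested members 8 were called higher over both times and 0 lower, with a median of 0.41, beside 1.34% of all genes called higher. COL4A1, a type IV collagen gene, was at 297 and 203 TPM without and 371 and 408 TPM with BMS493 at 12 h, and 189 and 256 against 360.4 and 371 TPM at 24 h. COL4A2, which shares its promoter, was at 192 and 116 TPM without and 221 and 253 TPM with BMS493 at 12 h, and 123 and 159 against 225 and 234 TPM at 24 h. Both were higher in each BMS493 library than in each library without it at the same time. Their log2 fold changes were 0.70 ± 0.16 and 0.69 ± 0.15 (adjusted p = 0.0143 and 0.00772). The laminin chains LAMB1 and LAMC1 rose by 0.58 ± 0.16 and 0.59 ± 0.13 (adjusted p = 0.0477 and 0.0094). The integrin subunits ITGAV, ITGB1 and ITGB3 had 0.54 ± 0.13, 0.35 ± 0.09 and 0.59 ± 0.16 (adjusted p = 0.0263, 0.0382 and 0.04), and ITGA5 is given above. The count rested on single libraries: 12 genes were called without replicate 1 of BLSE + IWR1 at 12 h, 0 without its replicate 2, 0 without replicate 1 of BLSE + IWR1 at 24 h, 0 without replicate 2 of BLSE + IWR1 + BMS at 12 h, and 0 in the fit of only the 8 libraries. They were 1 and 2 without replicates 1 and 2 of BLSE + IWR1 + BMS at 24 h, and 4 without either of the other 2 libraries.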
